A study of Arabidopsis thaliana with 10 samples.

Results

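Transcript levels of the Arabidopsis thaliana ecotypes C24 and Col were compared after 24 h at 4 °C, using the 2 arrays titled C24 at 24 h and the 2 arrays titled Col at 24 h, which are 4 of the 10 arrays of the series. Arabidopsis is a small mustard, Col (Columbia) is the accession that gave the reference genome, and C24 is another natural accession. All groups are untransformed ecotypes as far as the labels say, raised on plates of Murashige and Skoog medium at 23 and 18 °C, and no chemical treatment is named for any of them. Besides the cold-treated plants, each ecotype has 2 arrays from plants kept at room temperature, and C24 has 2 from 3 h of cold. The tissue is leaf and the age 20 days by the labels, but the series text speaks of 14-day-old seedlings, and at what hour the plants were harvested was not stated in those texts. The arrays of a group are biological replicates by the series text. Every value below is an RMA signal on the log2 scale from an Affymetrix ATH1 array, and every difference is C24 minus Col on that scale, so that 1 stands for a 2-fold ratio.

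In the cold, Arabidopsis switches on transcription factors that raise COR and LEA proteins, which protect membranes and other proteins when cells freeze, and it accumulates sugars and often anthocyanin pigments. Accessions differ in how far this acclimation goes. Autophagy, in which ATG8 proteins coat the membranes that enclose cell contents for degradation, is a process known from plants short of carbon. These statements are background and were not measured here.

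Replicates differed little: after 24 h the SD over the 2 arrays had a median of 0.0695 in Col and 0.0534 in C24. The number of arrays limits the precision, and the median SE of the ecotype difference was 0.0878. At room temperature the ecotypes lay further apart than in the cold (root mean square difference 0.761 against 0.604). The C24 room temperature arrays carried the cold-induced gene COR27 near its cold level (means of 10.93 and 10.73). All 3 measured genes of a cold signalling list, COR27 among them, were higher in C24 than in Col at room temperature (median 5.13). The single measured clock gene, GI, was higher there too (1.38). Of the 4 measured COR and LEA genes, 2 were higher in C24 at room temperature and 2, COR47 and LTI30, were lower (-0.20 and -1.86). Poly-A spike-in controls averaged 5.78 and 5.80 on the Col arrays and 6.91 and 7.05 on the C24 arrays after 24 h, whereas hybridisation controls averaged 9.95 and 9.87 against 9.66 and 9.57. A control probe set at the 3' end of actin mRNA gave 12.96 and 12.85 in Col and 10.43 and 10.57 in C24, while that at the 5' end gave 11.19 and 11.36 against 11.68 and 11.70. The gap between 3' and 5' GAPDH controls was 0.108 and 0.175 in Col and 0.374 and 0.389 in C24. The part of these control differences in the results was not tested. The leaf markers PSAN and RCA, 2 of 9 listed, averaged 13.57 and 13.49 in Col and 13.43 and 13.41 in C24, near the top of the scale on all 4 arrays. No listed flower or seed marker has a named probe set. In this text a measured gene is one with a probe set named for it alone. Of the 22746 probe sets tested, 8730 had no gene in the annotation used and 503 had several. Values of listed genes that are not counted as measured may lie among these.

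After 24 h of cold, limma called 11218 of 22746 probe sets different between C24 and Col at an adjusted p below 0.05, which is 49.3% of those tested. Of these, 6388 were higher in C24 (28.1%) and 4830 lower (21.2%). The larger differences leaned the other way: 751 probe sets were at least 2-fold higher in C24 (3.30%) and 1096 at least 2-fold lower (4.82%). At 4-fold or more the counts were 97 and 222. The median difference over all probe sets was 0.048. ATH1 probes were designed on the Col sequence, so a sequence difference under the probes, a gene missing from C24 and less RNA cannot be told apart. Of the 1096, 139 lay under the lower quartile of the array (about 4.5, called the background range below) on both C24 arrays, and of the 751, 44 did so on both Col arrays. In these whole seedlings or leaves, fewer cells of a type and less RNA per cell cannot be told apart either.

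The largest difference of a named gene was that of AT4G29200, which gave 3.77 and 4.01 in Col and 11.54 and 11.51 in C24. Its Col signals lay in the background range and its C24 signals far above it. The difference was 7.63 ± 0.11 (SE, limma adjusted p = 4.92e-12), and it was 6.70 at room temperature. Like 10 more of the 12 leading genes on the C24 side, it was already higher in C24 at room temperature. The exception was AT2G27420, with 4.21 on both Col arrays and 9.62 and 9.65 in C24 (5.43 ± 0.10). At room temperature its means were 6.64 in Col and 6.71 in C24, a difference of 0.07 that did not pass the threshold (adjusted p = 0.55). Its cold level was therefore lower than at room temperature in Col and higher in C24.

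Among the other leaders on the C24 side, MSRB6 (AT4G04840), a methionine sulfoxide reductase that repairs oxidised methionine in proteins, gave 7.66 and 7.85 in Col and 11.79 and 11.85 in C24. THI2.2 (AT5G36910), a thionin, one of the small antimicrobial peptides of plants, gave 8.98 and 8.89 against 12.20 and 12.21. Both were clearly expressed in both ecotypes, with differences of 4.06 ± 0.09 and 3.27 ± 0.08, and both were also higher in C24 at room temperature (2.08 and 2.23). AT2G29170 (4.78), AT5G15360 (4.60), AT2G29370 (4.58), AT4G19430 (4.22) and AT5G55570 (3.59) completed the protein-coding leaders of the nucleus. AT1G43590 (3.29) and AT5G34920 (3.28) are annotated as pseudogenes, and both lay in the background range in Col. In all, 6 of the 12 leaders were in that range on both Col arrays.

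Of the 50 largest called differences each way, 28 on the Col side and 18 on the C24 side had no single gene and were not named. Among named genes the leader on the Col side was ECS1 (AT1G31580), a small cell wall protein, with 11.58 and 11.38 in Col and 4.63 and 4.74 in C24. The C24 signal was just above the background range, and the difference of -6.79 ± 0.08 (adjusted p = 1.35e-12) was matched by -6.98 at room temperature. GSTU25 (AT1G17180), a tau class glutathione transferase of the kind that detoxifies reactive compounds, gave 11.74 and 11.73 against 6.33 and 5.90 (-5.62 ± 0.12). AT4G20480 (-4.74), AT5G23830 (-3.89), AT2G14460 (-3.82), the serine carboxypeptidase-like gene scpl42 (AT5G42240, -3.79), AT3G22240 (-3.78), AT1G65690 (-3.55), AT1G05340 (-3.52), AT5G45500 (-3.51) and AT1G23960 (-3.49) were lower in C24 at both temperatures. AT1G19530 differed from these 11 genes: its room temperature means were 6.04 in Col and 6.14 in C24, and after the cold it gave 8.61 and 8.70 in Col and 4.38 and 4.44 in C24. Its difference of -4.24 ± 0.09 was thus found in the cold and not called at room temperature (0.10, adjusted p = 0.387). Its cold C24 signals lay in the background range, as did those of 3 more of the 12, 4 in all. Such signals set no bound on the RNA difference, since a sequence difference under the probes cannot be told apart from less RNA. The SEs of the 12 ran from 0.08 to 0.15.

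**Figure D1:**
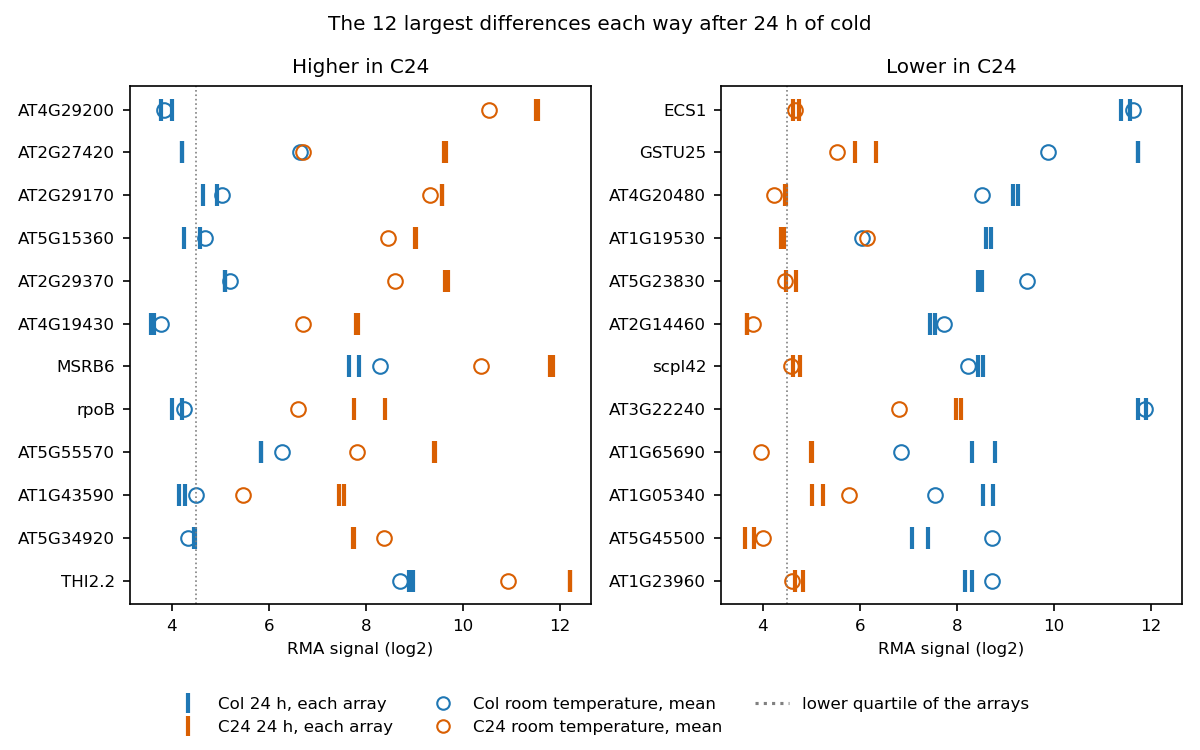
RMA signal (log2, horizontal) of the 12 named genes with the largest differences each way, 1 gene per row. Vertical ticks are single arrays after 24 h of cold and open circles are group means at room temperature, in blue for Col and orange for C24; the dotted line marks the lower quartile of the arrays. The ticks of the ecotypes are far apart in every row, and for AT2G27420 and AT1G19530 the room temperature circles coincide.

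The cold difference was set against the room temperature difference, which uses 4 other arrays. At room temperature 12749 probe sets were called (56.0%), and 6147 had the same direction at both temperatures, which is 54.8% of the cold calls and 48.2% of the room temperature calls. Another 1877 were called in opposite directions (16.7% and 14.7%), and 3194 of the cold calls (28.5%) were not called at room temperature. The cold difference itself differed from the room temperature difference in 8981 probe sets (39.5% of those tested). Across probe sets, which are not independent, the correlation of both differences was 0.45. Of the at least 2-fold cold differences, 474 of 751 higher and 765 of 1096 lower had the same direction at room temperature, while 145 and 191 had the opposite one.

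**Figure D2:**
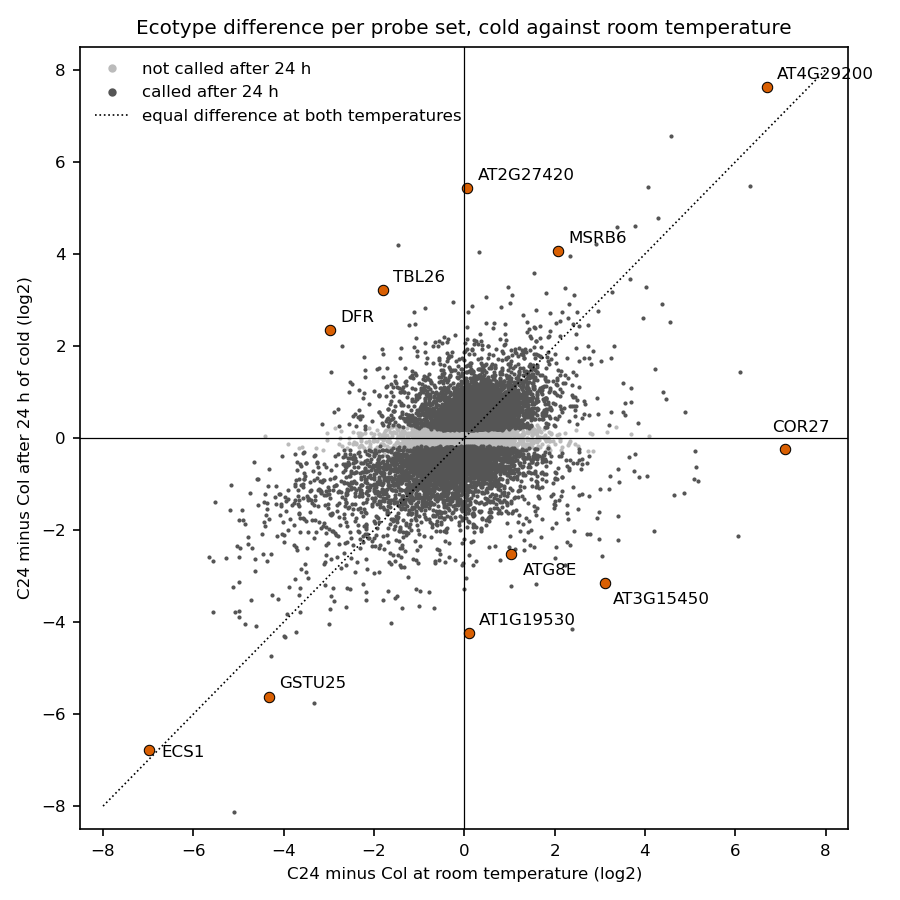
C24 minus Col at room temperature (horizontal, log2) against C24 minus Col after 24 h of cold (vertical, log2), 1 point per probe set, 22746 in all; dark points are the 11218 called in the cold and orange points are named genes. The dotted diagonal marks equal differences. ECS1 and AT4G29200 lie near it, DFR and TBL26 lie in the upper left quadrant and ATG8E and AT3G15450 in the lower right.

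Constant differences, called in the same direction at both temperatures with no called change between them, were led on the Col side by ECS1, AT2G14460, scpl42, the MADS-box gene AGL87 (AT1G22590, -3.42 in the cold and -3.67 at room temperature), AT2G40010 (-2.91 and -2.42) and AT2G04800 (-2.83 and -2.74). On the C24 side they were led by AT2G35820 (3.18 and 3.26), AT5G24240 (2.91 and 2.32), AT4G34950 (2.76 and 2.96), AT1G34570 (2.75 and 2.49), AT5G59670 (2.47 and 2.41) and AT3G27473 (2.22 and 2.13). AT4G34950 shows the pattern at a high signal in both ecotypes, with 9.44 and 9.51 in Col and 12.24 and 12.23 in C24. Such constant differences made up 159 of the 751 and 218 of the 1096. They are differences with no called change, not equal ones, and small changes may have gone uncalled.

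Reversed differences were led by TBL26 (AT4G01080), a member of the trichome birefringence-like family, whose studied members acetylate cell wall polysaccharides. It gave 6.33 and 6.21 in Col and 9.51 and 9.45 in C24 after the cold, with C24 higher by 3.21 ± 0.08, whereas the difference was -1.81 at room temperature. AT5G51440 (2.95 in the cold, -0.24 at room temperature), AT2G15020 (2.45 and -1.22) and DFR (2.35 and -2.97) followed. In the other direction AT3G15450 gave 12.16 and 12.37 in Col and 9.09 and 9.13 in C24 (-3.15 ± 0.09), after a room temperature difference of 3.11. EXLA1 (-2.77 and 0.19, the latter with an adjusted p of 0.0498), AT3G15630 (-2.56 and 3.05) and ATG8E (-2.52 and 1.03) followed. From room temperature to cold, the mean of AT3G15450 went from 8.53 to 12.26 in Col and from 11.64 to 9.11 in C24, and that of AT3G15630 from 6.78 to 8.52 and from 9.83 to 5.96.

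Most measured anthocyanin genes were higher in cold C24 than in cold Col, and flavonol genes went both ways. Of 31 listed genes of flavonoid and anthocyanin synthesis 9 had a named probe set, and 8 of them were higher and 1 lower in C24, with a median of 1.37 against 0.05 over all 13286 named genes, of which 3588 were higher and 2535 lower (46.1% called). At room temperature the same 9 had a median of -1.62, with 1 higher and 8 lower. DFR (AT5G42800), dihydroflavonol reductase, the first enzyme of the anthocyanin branch, gave 6.49 and 6.23 in Col and 8.72 on both C24 arrays. All C24 values lay above all Col values, by 2.35 ± 0.09 (adjusted p = 4.43e-09). Its mean was 10.53 in Col at room temperature and 7.56 in C24, so the order of the ecotypes was the reverse there.

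The later anthocyanin enzymes had the same pattern; the members named beyond DFR, CHIL, UF3GT and UGT78D1 were chosen after their values were seen. UF3GT (AT5G54060), which adds xylose to anthocyanins, gave 6.46 and 6.55 in Col and 8.01 and 8.02 in C24 (1.51 ± 0.10), and AT5MAT (AT3G29590), the malonyltransferase that finishes the pigment, gave 5.23 and 5.39 against 6.67 and 6.65 (1.35 ± 0.08). AT4G14090 stood at 7.42 and 7.23 against 8.67 and 8.71 (1.37 ± 0.08). These 3 genes were lower in C24 at room temperature, by -1.93, -1.53 and -1.16. Upstream, CHIL (AT5G05270), a chalcone isomerase-like protein that assists the first steps, gave 9.89 and 9.82 in Col and 11.37 and 11.39 in C24 (1.52 ± 0.08). HYH (AT3G17609), a bZIP factor related to the light regulator HY5, was higher by 1.17 ± 0.12.

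The flavonoid glycosyltransferases named UGT78D were split. UGT78D3 (AT5G17030), an arabinosyltransferase, was higher in C24 at both temperatures (1.43 ± 0.17 and 0.48), UGT78D2 (AT5G17050), a glucosyltransferase, was higher by 0.42 ± 0.07 after the cold and lower at room temperature (-1.14), and UGT78D1 (AT1G30530), a rhamnosyltransferase, was lower at both (-0.51 ± 0.08 and -3.27). UGT78D1 was the sole member lower in cold C24. For each of the 9 members the cold difference was above the room temperature difference past the threshold.

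Autophagy genes sharing the name ATG were chosen after the values were seen, and 7 of the 8 measured are ATG8 paralogs. After the cold 6 were lower in C24 and 0 higher, with a median of -0.76, against 2535 lower and 3588 higher of 13286 named genes and a median of 0.05, and at room temperature 4 were higher and 1 lower with a median of 0.20. ATG8E (AT2G45170) gave 8.20 on both Col arrays and 5.55 and 5.80 in C24, well below Col, a difference of -2.52 ± 0.10 (adjusted p = 6.99e-09). ATG8H (AT3G06420, -1.36 ± 0.10), ATG8C (AT1G62040, -1.28 ± 0.10), ATG8F (AT4G16520, -0.97 ± 0.07), ATG8B (-0.55 ± 0.08) and ATG3, the enzyme that attaches ATG8 to lipid (-0.24 ± 0.08), were lower too. ATG8D (-0.19, 95% interval -0.42 to 0.04) and ATG8G (0.07) did not pass the threshold. For the 7 ATG8 genes measured, the cold difference was below that at room temperature in each case past the threshold. The VPS genes of membrane sorting, also chosen afterwards by name, had 6 of 10 members lower and 1 higher in C24 (VPS60.1, -1.04 and VPS2.1, -0.84 among the lower ones).

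**Figure D3:**
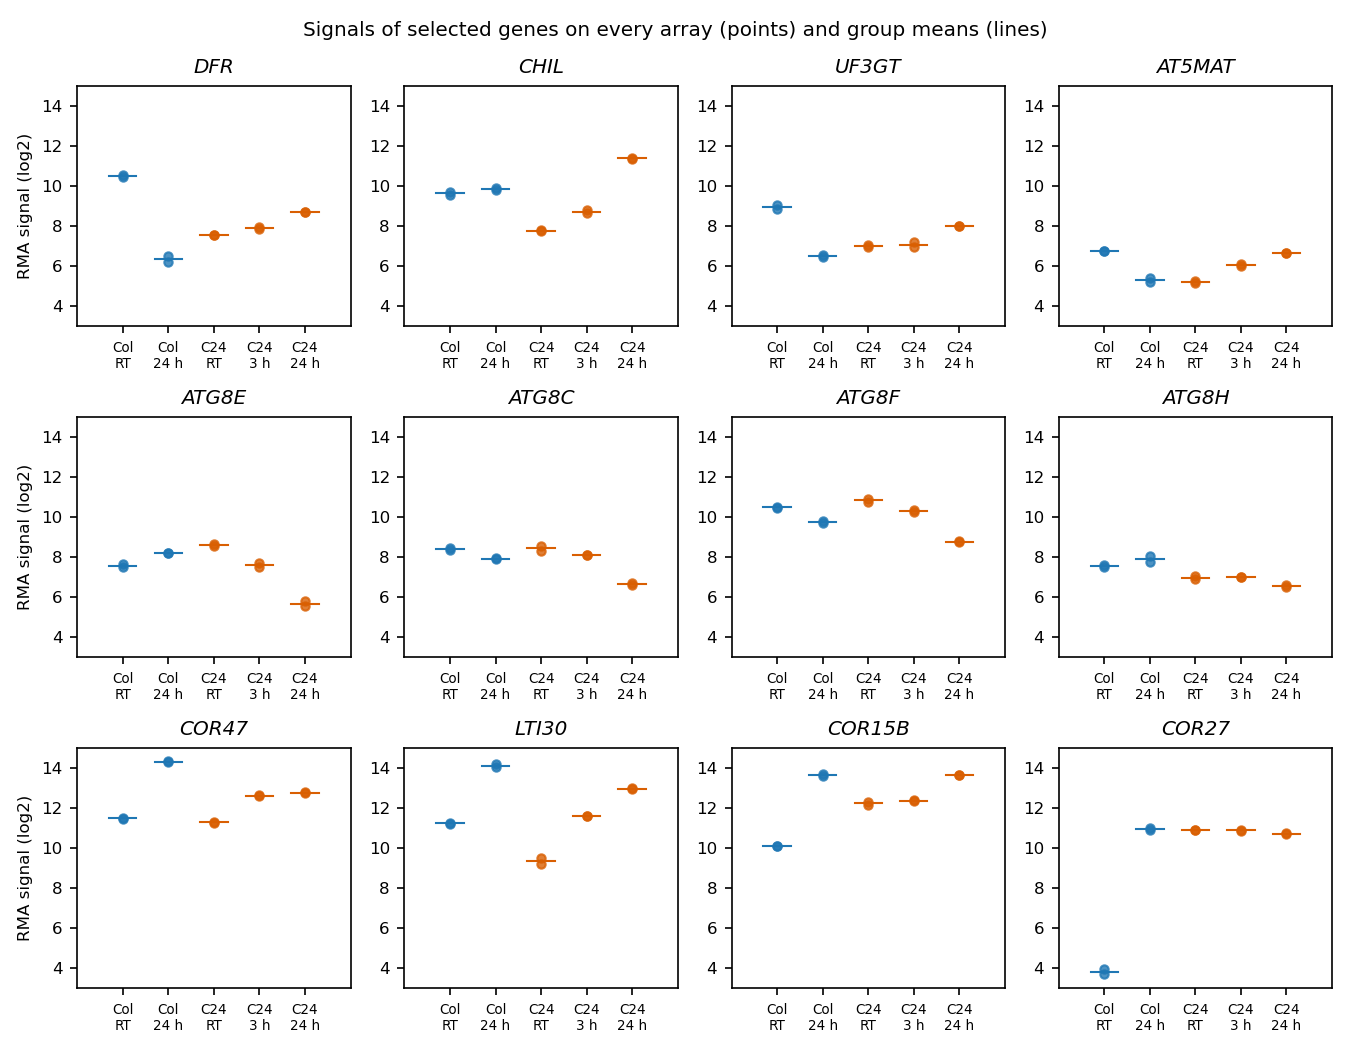
RMA signal (log2) on every array (points) and group means (lines) for 12 genes in the 5 groups, in blue for Col and orange for C24; RT is room temperature. After 24 h of cold the 4 anthocyanin genes in the top row stand higher in C24 and the 4 ATG8 genes in the middle row higher in Col; in the bottom row COR47 and LTI30 stand higher in Col, while COR15B shows no visible gap and COR27 a small one.

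Among the COR and LEA proteins that protect freezing cells, 4 of 17 listed genes were measured, and 0 were higher and 2 lower in C24 after the cold: both dehydrins were lower and neither chloroplast protein was called. The share called, 50%, was close to the 46.1% of all named genes. COR47 (AT1G20440), an acidic dehydrin, gave 14.29 and 14.35 in Col and 12.76 and 12.78 in C24. Both Col values were the highest of any probe set on their arrays, and the difference was -1.55 ± 0.07 (adjusted p = 1.35e-08), which may understate the gap because the Col values are at the top of the scale. LTI30 (AT3G50970), another dehydrin, gave 14.07 and 14.18 against 12.93 and 12.98 (-1.17 ± 0.09). At room temperature the differences of COR47 and LTI30 were -0.20 and -1.86. COR15A (AT2G42540), which stabilises chloroplast membranes, gave 14.08 and 14.12 in Col and 14.17 and 14.07 in C24, and its groups overlapped (0.02, 95% interval -0.14 to 0.19). COR15B (AT2G42530) gave 13.62 and 13.68 against 13.63 and 13.64 (-0.01, interval -0.17 to 0.14). These signals lie close to the upper end of the arrays, whose highest values ran from 14.29 to 14.50. A probe set shared by KIN2 and KIN1 cannot be assigned to either, and its difference of 0.12 did not pass the threshold (adjusted p = 0.195).

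The cold signalling list had 3 of 18 genes measured, all lower in C24 after the cold and all higher in C24 at room temperature. Among all named genes 46.1% were called after the cold. STZ (AT1G27730), a zinc finger repressor raised by cold and other stresses, gave 9.36 and 9.18 in Col and 8.15 and 8.25 in C24 (-1.07 ± 0.09, against 2.40 at room temperature). AT4G33980 stood lower (-0.64 ± 0.08), after a room temperature difference of 5.13. COR27 (AT5G42900), an evening gene induced by cold, gave 10.93 and 11.02 against 10.74 and 10.72, a small difference of -0.24 ± 0.09 (adjusted p = 0.0368). It missed the threshold when any single one of the 4 arrays was left out (adjusted p from 0.054 to 0.163), whereas its room temperature difference was 7.10. The single measured clock gene, GI (AT1G22770), which links the clock to flowering, stood at 10.45 and 10.47 against 10.55 and 10.64 and was not called (0.14, interval -0.04 to 0.31). Of the flowering list 2 of 22 genes were measured, SMZ (-0.11) and LD (0.11), and neither was called.

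Further genes were picked by hand after their values were seen, among 176 genes with a symbol of their own that were at least 2-fold apart, 79 higher and 97 lower in C24. They form no fixed list. Lower in C24 were the calmodulin-like calcium sensors CML38 (AT1G76650, 6.60 and 7.42 in Col and 4.38 and 4.29 in C24, -2.67 ± 0.19) and CML37 (-2.02 ± 0.08). Of the 7 measured genes named CML, 4 were lower, 1 was higher and 2 were not called. The osmotin-like defence protein OSM34 (-2.52), the late embryogenesis protein LEA4-5 (-2.03) and the defensin PDF2.1 (-2.67) were lower as well. Higher in C24 were M17 (AT2G41260), a late embryogenesis protein, with 3.83 and 3.93 in Col, in the background range, and 6.60 and 6.65 in C24 (2.74 ± 0.12), LEA18 (1.59), ICL, isocitrate lyase of the glyoxylate cycle (1.61), and the linker histone HIS1-3 (1.74). Genes of the LEA type thus stood on both sides.

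Of 30 listed genes of sugar and starch metabolism 9 were measured, and 6 were higher and 1 lower in cold C24, with a median of 0.47. Over all 13286 named genes 3588 were higher and 2535 lower, with a median of 0.05. ATSPS4F (AT4G10120), a sucrose phosphate synthase, gave 9.38 and 9.43 in Col and 10.43 and 10.47 in C24 (1.05 ± 0.07), and its room temperature difference was alike (1.02). SWEET13 (AT5G50800), a sucrose transporter, gave 9.53 and 9.24 against 10.31 and 10.48 (1.01 ± 0.11), while at room temperature C24 was lower (-2.55). DPE1, which reworks the sugars of starch breakdown, was higher by 0.68. The transporter TMT1 was the lower member (-0.26 ± 0.07), and it missed the threshold without C24 replicate 2 (-0.22, adjusted p = 0.0935) or without Col replicate 2 (-0.19, adjusted p = 0.1). Of the large subunits of ADP-glucose pyrophosphorylase, the enzyme that commits glucose to starch, APL3 (AT4G39210) gave 6.44 and 6.64 in Col and 8.48 and 8.47 in C24 (1.94 ± 0.15), against -1.82 at room temperature. APL4, chosen after its value was seen, was higher by 1.46. On the Col side, AKINBETA1, a regulatory subunit of the energy-sensing kinase SnRK1 (-1.58), SDP1, a lipase of storage oil (-1.57), and MCCA, an enzyme of leucine breakdown (-1.18), were chosen in the same way.

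**Figure D4:**
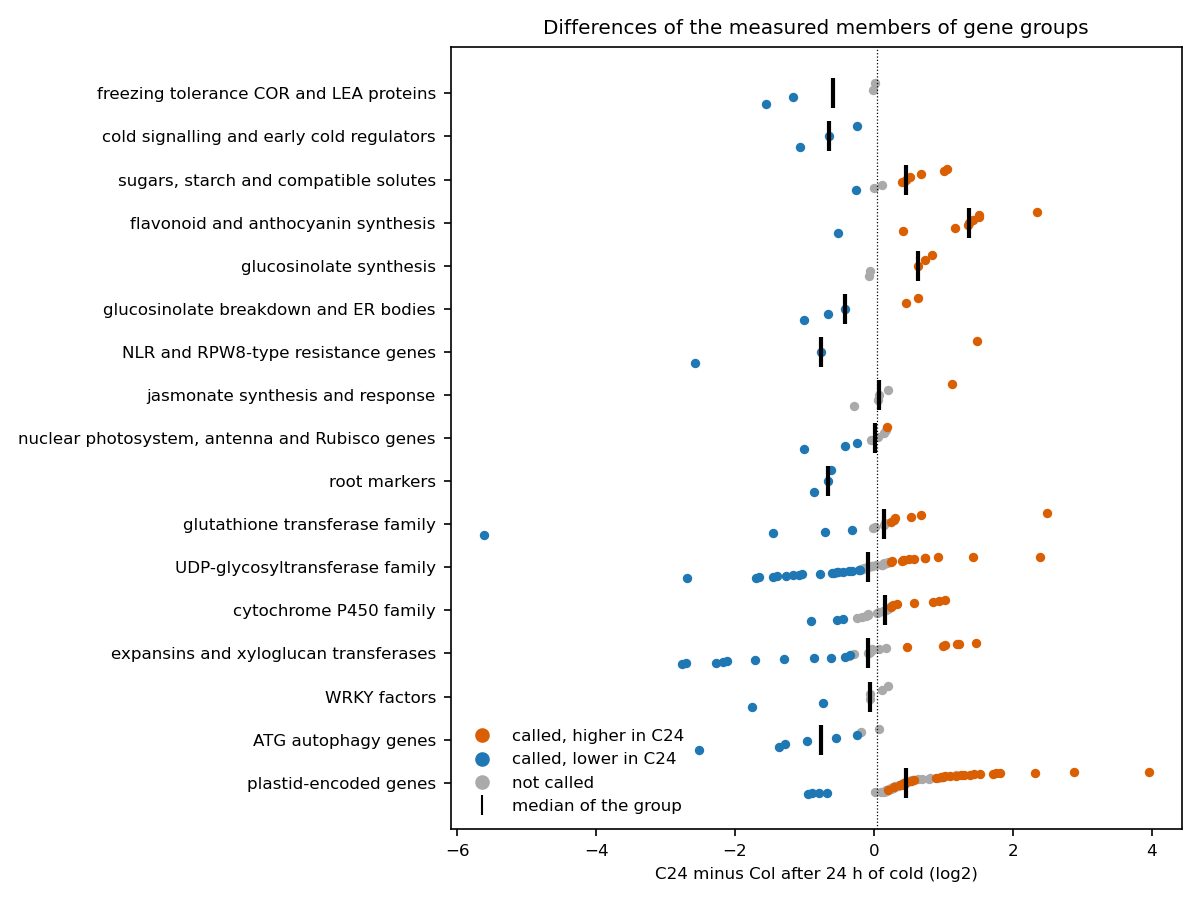
C24 minus Col after 24 h of cold (log2, horizontal) for each measured member (points) of 17 gene groups, with called members in orange (higher in C24) or blue (lower), uncalled ones in grey, and black ticks for group medians; the dotted line is the median of all named genes (0.05). The flavonoid points lie mostly at the right with a median of 1.37, and the ATG points mostly at the left with a median of -0.76.

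Cell wall genes went both ways. Of 27 measured expansins and xyloglucan transferases, which loosen and rejoin the wall as cells grow, 6 were higher and 11 lower in C24, with a median of -0.08. The share called was 63%, against 46.1% of all named genes, of which 3588 were higher and 2535 lower. EXLA1 (AT3G45970), an expansin-like protein, gave 9.02 and 8.90 in Col and 6.15 and 6.24 in C24, and its neighbour on chromosome 3, EXLA3 (AT3G45960), gave 6.82 and 6.57 against 4.12 and 3.87. The neighbours XTH18 (AT4G30280) and XTH19 (AT4G30290), the latter chosen for its position, were both lower (-2.28 and -2.12). Neighbouring paralogs may share probe signal, which was not tested. Higher in C24 were XTH32 (1.47), EXPB1 (1.22) and EXPA15 (1.2), of which EXPB1 and EXPA15 were lower in C24 at room temperature (-2.53 and -1.52). Of 9 root markers 3 were measured and all 3 were lower in C24 (EXPA7, -0.86, PYK10, -0.66 and EXPA18, -0.62), with means of 8.11 and 8.10 in Col and 7.40 and 7.39 in C24, and none in the background range. EXPA7 and EXPA18 are expansins and so also members of this group. At room temperature the marker means were 8.69 and 8.93 against 6.78 and 6.85, and their part in the results was not tested.

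Glucosinolate genes were called in both directions as well. Among all 13286 named genes 46.1% were called, 3588 higher and 2535 lower. Of the synthesis list 5 of 29 were measured, 3 were higher and 0 lower (median 0.64): AT2G31790 (0.84), UGT74B1, which adds the glucose of the core (0.73), and BCAT4, which opens the elongation of methionine (0.64). AOP1 (-0.06) and AOP3 (-0.07) did not pass the threshold. Of the breakdown and ER body list 5 of 18 were measured. NAI2, needed to form ER bodies (-1.0), the ER body glucosidase PYK10 (-0.66) and the lectin JAL22 (-0.42) were lower, while the regulator NAI1 (0.46) and the lectin JAL23 (0.64) were higher. PYK10 is also a root marker. For these 5 the cold difference was above that at room temperature past the threshold.

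Detoxification families also held members on both sides. Of 14 glutathione transferases 6 were higher and 4 lower (median 0.15). Next to GSTU25, GSTU26 (AT1G17190) gave 6.76 and 6.87 in Col and 9.31 and 9.29 in C24 (2.49 ± 0.07), and GSTU22 (AT1G78340) was lower in C24 (-1.45). Of 47 UDP-glycosyltransferases 12 were higher and 19 lower (median -0.08), led by UGT73C1 (2.40) on the C24 side and by UGT73B4 (-2.69), UGT73B5 (-1.70) and UGT85A2 (-1.65) on the Col side. Of 22 cytochrome P450 genes 7 were higher and 3 lower (median 0.16), from CYP71B26 (1.03) to CYP71B29 (-0.91), and the 45.5% called were close to the 46.1% of all named genes. The single gene with a heat shock symbol, ATHSP22.0, was not called (-0.15). Members of these families, of the expansins and xyloglucan transferases and of the WRKY factors were taken by symbol. Genes shown by a locus code alone were therefore not counted in them.

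Few immunity genes were measured, and 46.1% of all named genes were called. Of the resistance gene list 3 of 26 were, and CSA1 (AT5G17880), a TIR-type receptor, was higher in C24 with 7.06 and 6.99 in Col and 8.56 and 8.45 in C24 (1.48 ± 0.10), whereas AT4G19500 (-2.58) and AT4G19510 (-0.76) were lower, both in the background range on the C24 arrays. All 3 had the same direction at room temperature (2.08, -2.83 and -0.63). Of the jasmonate list 5 of 25 were measured and 1 was called, the defensin PDF1.2b (1.12). PDF1.2 (0.08), THI2.1 (0.06), LCR67 (0.21) and ORA47 (-0.29) did not pass the threshold, the last with 4.54 and 5.35 on the Col arrays. ORA47 was called without Col replicate 1 (-0.70, adjusted p = 0.000876) and stood at 0.12 without Col replicate 2. THI2.1 was called without C24 replicate 2 (0.31, adjusted p = 0.0488), and LCR67 with arrays centred on their medians (0.23, adjusted p = 0.0478). Of the salicylic acid list 2 of 22 were measured: SAG101, a partner of the immune regulator EDS1, was higher by 0.29, but not past the threshold without C24 replicate 2 (adjusted p = 0.0908) or without Col replicate 1 (adjusted p = 0.0724), and WRKY53 was not called (-0.05). Of 6 WRKY factors 2 were lower, WRKY6 (-1.75) and WRKY47 (-0.73), and 0 higher (median -0.06).

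Of 36 listed nuclear photosynthesis genes 8 were measured, and 1 was higher and 3 lower in C24, with a median of 0.01. The share called, 50%, was close to the 46.1% of all named genes. LHCB4.2, an antenna protein of photosystem II, gave 12.43 and 12.36 in Col and 11.43 and 11.36 in C24 (-1.0 ± 0.07), and PSAN (-0.41) and PSBW (-0.24) were lower too. RCA, Rubisco activase, was higher by 0.19 with an adjusted p of 0.0469, and it missed the threshold without any single one of the 4 arrays (adjusted p from 0.0602 to 0.233). PSBW missed it without either C24 array or Col replicate 1 (adjusted p from 0.0854 to 0.192). No gene of the membrane lipid or antioxidant lists has a named probe set.

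Plastid-encoded genes were chosen as a group after the values were seen. Of 69 measured, 30 were higher and 4 lower in C24, so that the share called was 49.3%, the same as over all probe sets, with a median of 0.46 after the cold and 0.25 at room temperature. Their probe sets varied more between replicates than others, with a median gap between replicate arrays of 0.703 in Col and 0.476 in C24, against 0.0982 and 0.0755 over all probe sets. In Col, replicate 2 was above replicate 1 in 62 of the 69, and in C24 replicate 1 was above replicate 2 in 67. The count of 30 fell to 16 without Col replicate 1 and to 17 without C24 replicate 1, and it was 47 without Col replicate 2. The poly-A spike-ins given above were also higher on the C24 arrays, and their part was not tested.

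Some plastid genes stood apart beyond this spread. rpoB, a core subunit of the plastid RNA polymerase, gave 4.00 and 4.21 in Col, in the background range, and 8.39 and 7.75 in C24 (3.96 ± 0.30). rps18, of the small ribosomal subunit, gave 7.14 and 7.18 against 9.56 and 9.38 (2.32 ± 0.08), and the photosystem I subunit psaJ gave 8.63 and 8.48 against 10.35 and 10.21 (1.72 ± 0.09). rpl33, of the large ribosomal subunit, gave 9.25 and 9.44 against 10.83 and 10.74 (1.44 ± 0.08). In each of these 4 the gap between ecotypes was several times that between replicates, and each was higher in C24 at room temperature too (2.35, 1.89, 1.91 and 1.62). rps16, also of the small ribosomal subunit, had the second largest difference, with 5.74 and 6.5 in Col and 9.46 and 8.55 in C24 (2.88 ± 0.38). It was not called at room temperature (0.18, adjusted p = 0.705), and the change between temperatures was called (2.70 ± 0.54). The 4 lower genes were psbE (-0.95), psbF (-0.89), psbJ (-0.79) and psbL (-0.67), small subunits of photosystem II that are transcribed together from 1 operon. Of the 20 measured photosystem subunits 11 were higher, of 15 ribosomal proteins 6, of 10 NDH subunits 5, of 4 polymerase subunits 3 and of 6 ATP synthase subunits 0. Their median differences, in that order, were 0.56, 0.35, 0.32, 0.99 and 0.51. The uncalled ATP synthase genes thus had a larger median than the ribosomal and NDH genes.

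**Figure D5:**
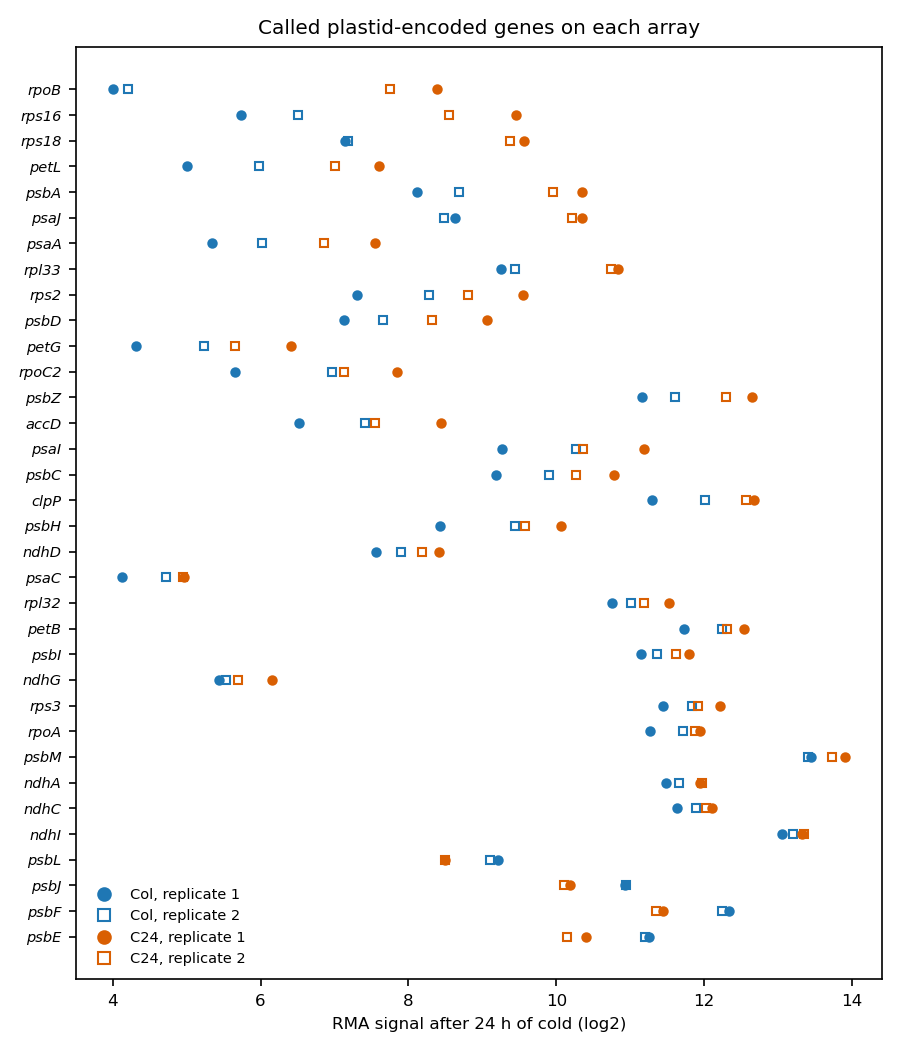
RMA signal after 24 h of cold (log2, horizontal) of the 34 called plastid-encoded genes, 1 gene per row, with filled circles for replicate 1 and open squares for replicate 2, in blue for Col and orange for C24. Replicate 2 lies right of replicate 1 in most Col rows and left of it in most C24 rows, and the 4 lowest rows are psbE, psbF, psbJ and psbL.

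Most genes had 1 probe set, so a second measurement on the array was available for 147 genes. In 6 of these the probe sets differed by more than 1 in the ecotype difference, and in 3 of the 6 the discordant probe set lay in the background range on all 4 arrays (2A6, GAT1_2.1 and SQN, named here because of this). In 8 of the 147 genes probe sets were called in opposite directions, AT2G20050 (0.64 and -0.40) and 2A6 (-1.90 and 0.25) among them. Among the nuclear chromosomes, the share of named genes called ran from 43.2% on chromosome 2 to 48.1% on chromosome 5.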

How the data were processed

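Per the labels' protocols, total RNA was biotin-labelled and hybridised to 1-colour ATH1 arrays. The deposited values are log2 signals, for which the submitters' processing notes name GCOS and RMA and no version. All value columns were mapped to samples. The table holds 22810 probe sets, of which 64 are controls, and the remaining 22746 were tested with no filter or detection call. A gene name was used only for the 13513 probe sets annotated with a single gene (13436 found in RefSeq, TAIR10.1), and for genes measured more than once the brightest probe set entered the lists. A model of 5 group means was fitted to the 10 arrays (limma 3.58.1, R 4.3.3, lmFit and eBayes), and it gave the ecotype difference after 24 h, that at room temperature, and the difference of both, each with Benjamini-Hochberg adjustment over all probe sets. Tested on simulated data for the 24 h comparison (22746 probe sets, 200 changed), it recovered 86.5% of log2 differences of 0.5 and 99.5% of 1. For the difference of both (22746 probe sets, 200 changed), it recovered 12% of changes of 0.5 and 99.5% of 1. At these 2 sizes, false calls numbered 15 and 11 for the 24 h comparison and 1 and 8 for the difference of both. The simulation changed only 200 probe sets, whereas 49.3% and 39.5% were called in the data. These rates therefore need not hold for the real fit.

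Named genes were, where called with 1 gene and no overlap between groups, the 12 largest each way, the 6 largest each way whose difference changed with temperature or stayed constant, the 4 largest each way that reversed, and of each list the 3 largest called members each way (all members of lists with up to 6). Others are said to be chosen after their values were seen. The gene lists, like the comparison, were chosen with earlier results of these data known. Normalisation, centring, replicate block, prior, dim probe sets, 1 probe set per gene, arrays fitted and each array left out were varied. A planned promoter motif search was not run, since no sequences were used here.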

Additional observations from a re-analysis of the deposited data

Results flagged for a closer look

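The ecotype difference after 24 h of cold differed from that at room temperature, by the test of that difference in limma, in 8981 probe sets. Among named genes the difference moved furthest toward Col for COR27 (-7.35), AT3G15450 (-6.26), AT5G62360 (-5.89), AT4G33980 (-5.77), AT3G15630 (-5.61) and AT2G38465 (-4.71). The room temperature mean of COR27 was 10.93 in C24, against 3.83 in Col, and after 24 h of cold it was 10.73 in C24 and 10.97 in Col. It moved furthest toward C24 for AT2G27420 (5.35), DFR (5.33), TBL26 (5.02), AT1G22440 (4.14), AT4G30170 (4.13) and APL3 (3.76). AT1G22440 and AT4G30170 were lower in C24 at both temperatures, by far less after the cold. Of the genes that changed direction, the difference moved by 3.67 for AT2G15020, 3.19 for AT5G51440, -3.55 for ATG8E and -2.96 for EXLA1. No explanation of these differences was tested. Groups of 2 arrays are too small for a check of single arrays that stand apart within a group.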

How the results depend on the processing

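The count of called probe sets after 24 h stayed within 1.5 times 11218 under each alternative but 1 probe set per gene, which tests fewer features by construction and gave 6026 calls (3512 higher and 2514 lower in C24), 941 at least 2-fold (390 higher, 551 lower), 6966 at room temperature, 4609 for the difference of both, and 3291 and 941 called in the same and in opposite directions at both temperatures. Leaving out each array in turn gave 9295 to 9944 calls after 24 h (5167 to 5592 higher, 4063 to 4352 lower), 1847 to 1890 at least 2-fold (749 to 785 higher, 1094 to 1113 lower), 10989 to 11202 at room temperature, 7796 to 8451 for the difference, and 5212 to 5563 in the same and 1525 to 1698 in opposite directions. Without the C24 room temperature arrays, an alternative chosen after the data were seen, there were 11201 calls. With the replicate number as a block there were 11153, and with the numbers of the C24 cold arrays exchanged there were 11212. That exchange was added on seeing that deviations of same-numbered cold arrays correlated at -0.1153. Over all pairs of groups these correlations ran up to 0.1194. Whether arrays of the same number share a batch was not tested. Of 1514 repeated values for 117 named genes, 1488 kept direction and call, 23 lost the call, 3 gained it and 0 reversed. The cause was not tested.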
